A study of Mus musculus with 7 samples.

Results

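The solute carriers are the largest group of membrane transporters in mammals, and those described here are the genes of the mouse testis named Slc with a family number, apart from the glucose carriers (Slc2a), the monocarboxylate carriers (Slc16a) and the fatty acid transport proteins (Slc27a). They were taken by symbol from a table of RNA levels in total testis, which gave 247 genes of 43 families among the 19719 genes listed, and they were grouped by family number and by the kind of solute their family carries. Of these 247 genes, 246 are protein coding and 5 (*Slc9a3r1*, *Slc9a3r2*, *Slc4a1ap*, *Slc7a6os* and *Slc36a1os*) carry the name without being transporters, so they were counted apart. The study asked what loss of the E3 ubiquitin ligase RLIM does to gene expression in the male. It compared 4 libraries of testes with a deletion of the X-linked *Rlim* gene (cKO/Y Sox2-Cre, below cKO/Y) with 3 libraries from male littermates that carry the same floxed allele without Cre (fl/Y), all of strain C57BL/6 per the labels and 8 weeks of age. The labels call these groups Rlim-KO and WT. Sox2-Cre is a transgene that acts in the epiblast, so the allele is deleted in the cells of the testis in general, and an effect of the transgene itself cannot be told apart from that of the deletion, because the control animals lack it.

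Solute carriers move ions, nutrients, metals, vitamins and metabolites across the plasma membrane and the membranes of organelles, mostly by cotransport or exchange. In the seminiferous epithelium germ cells beyond the blood-testis barrier depend on Sertoli cells for nutrients, and sperm carry exchangers of their own in the flagellum that set intracellular pH and support motility. Mitochondrial carriers (family 25) link the matrix to the cytosol, and germ cells use an ADP/ATP carrier encoded by an autosomal gene. This gene serves at a stage when the X chromosome, with its somatic counterpart, is silenced.

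Values are CPM, that is reads scaled by library by the authors, and 1 column was given for each library. Their sum over the listed genes was 866540 to 1219900 in a library. The labels place fl/Y replicates 1 and 2 and cKO/Y replicates 1 and 2 in batch 2, and the other 3 libraries in batch 1. Depth was 2822168 to 8633399 reads in listed genes, and a gene without a read could still be present at up to 3 reads, worth 0.301 to 0.945 CPM by counting error alone. In the fl/Y libraries *Rlim* had a mean of 77.2 ± 19.8 CPM (SD, n = 3), against 27.7 ± 7.58 CPM (SD, n = 4) with the deletion, and a log2 fold change of -1.38 (limma, adjusted p = 0.0087). This call was lost without fl/Y replicate 1 (limma, adjusted p = 0.154) and without fl/Y replicate 3 (limma, adjusted p = 0.634). Markers of the testis label were present, since those of germ cells, Sertoli cells and Leydig cells were all listed, and the 4 epididymis markers were not among the genes listed. In cKO/Y replicate 1 a single gene, CT010467.1, took 19.3% of the reads, against 0.0119 to 4.6% in the other libraries. Another gene, mt-Rnr2, took 17.7% and 17.1% of the reads in fl/Y replicates 1 and 2 and 16.8% in cKO/Y replicate 2. In the other libraries it took 5.06 to 9.21%. The summed Sertoli cell markers were lowest in fl/Y replicate 1 (293.9 CPM) and cKO/Y replicate 2 (309.4 CPM), against 477 to 598 CPM in the others. In total testis, fewer cells of a type and less RNA per cell cannot be told apart.

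Promoters are shown for 4 of the 12 solute carriers with the highest RNA level, to set a pair of mitochondrial carriers beside a pair of sperm exchangers. Each is the RefSeq promoter sequence on build GRCm38.p6 upstream of the annotated start, ended before the first annotated exon, and CG dinucleotides are in capitals. *Slc25a31* is the ADP/ATP carrier of germ cells, with its stretch at chr3:40708621-40708854 on the plus strand. *Slc25a39*, a carrier of the inner mitochondrial membrane needed for import of glutathione, has its stretch at chr11:102407545-102407767 on the minus strand. *Slc9b1* and *Slc9c1* encode sodium-proton exchangers of sperm, at chr3:135347779-135348028 and chr16:45535016-45535265, both on the plus strand.
Slc25a31: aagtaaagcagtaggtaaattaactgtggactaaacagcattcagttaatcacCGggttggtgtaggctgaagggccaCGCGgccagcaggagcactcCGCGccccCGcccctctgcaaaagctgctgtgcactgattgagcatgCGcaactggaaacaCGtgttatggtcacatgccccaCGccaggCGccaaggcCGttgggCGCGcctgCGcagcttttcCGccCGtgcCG
Slc25a39: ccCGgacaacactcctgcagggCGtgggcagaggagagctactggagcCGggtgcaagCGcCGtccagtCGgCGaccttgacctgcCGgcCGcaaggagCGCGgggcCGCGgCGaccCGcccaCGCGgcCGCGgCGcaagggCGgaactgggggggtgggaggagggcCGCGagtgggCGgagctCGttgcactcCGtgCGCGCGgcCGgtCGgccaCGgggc
Slc9b1: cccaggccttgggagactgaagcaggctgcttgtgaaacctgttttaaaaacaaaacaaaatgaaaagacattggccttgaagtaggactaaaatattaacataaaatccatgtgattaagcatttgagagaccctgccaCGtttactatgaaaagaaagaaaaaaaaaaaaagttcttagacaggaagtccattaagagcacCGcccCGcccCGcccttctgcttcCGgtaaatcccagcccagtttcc
Slc9c1: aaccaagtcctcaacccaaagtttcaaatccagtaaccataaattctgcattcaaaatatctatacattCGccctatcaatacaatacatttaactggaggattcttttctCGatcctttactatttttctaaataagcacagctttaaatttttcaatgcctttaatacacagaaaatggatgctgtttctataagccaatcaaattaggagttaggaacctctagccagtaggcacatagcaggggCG
The stretch of *Slc25a31* held 17 CG dinucleotides in 234 bases and that of *Slc25a39* held 32 in 223 bases, whereas *Slc9b1* held 5 and *Slc9c1* held 3 in 250 bases each. The motif searched was CG, which reads the same on both strands, and over 32851 promoter windows of 250 bases the median was 6 and 92.1% held at least 1. Of the 247 solute carriers, 193 had a window, and their 252 windows held a median of 12, in a range of 0 to 44, with at least 1 in 99.2%. These 4 genes were thus on both sides of the median of their group, and the count is a description of the sequence alone. Other genes of the same families went the other way, with 18 in the window of *Slc9a8* and 4, 8 and 9 in the 3 windows of *Slc25a14*.

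Most solute carriers were present at low levels and a few were abundant. Mean CPM over the 7 libraries was below 1 for 10 of the 247, from 1 to 10 for 123, from 10 to 100 for 107 and 100 or more for 7. In all 7 libraries 204 of them were above 1 CPM. To compare genes with each other, CPM was divided by the length of the merged exons in kb, and the median on this scale was 1.95 CPM per kb for the solute carriers and 2.90 over all genes with a length. The 12 highest held 40.7% of the summed CPM per kb of the group, and 8 of the 247 (3.24%) were among the highest 10% of all genes. Together the solute carriers took 5140 to 5580 CPM in a library. As a share of the CPM of all listed genes this was 0.425% (cKO/Y replicate 1) to 0.644% (cKO/Y replicate 4).

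*Slc25a39* had the highest mean, at 101 CPM per kb (76.1 to 123) over the 7 libraries. It was followed by *Slc22a14*, a riboflavin transporter of sperm, at 67.1 CPM per kb (56.2 to 76.5), and by *Slc22a16*, a carnitine transporter, at 60.2 CPM per kb (30.3 to 80.4). Both belong to the organic cation and anion family. *Slc6a21*, of the neurotransmitter and amino acid transporter family, was at 54.3 CPM per kb (36.4 to 71.1), and the sperm exchanger *Slc9c1*, which male mice need for sperm motility, at 53.2 CPM per kb (29.7 to 81.2). The second sperm exchanger, *Slc9b1*, was at 42.9 CPM per kb (32.3 to 50.2). The order of these 6 was not fully resolved, since neighbours in it overlap and the range of *Slc25a39* also overlaps those of *Slc22a14*, *Slc22a16* and *Slc9c1*. *Slc26a8*, an anion transporter of the sperm annulus, was at 30.1 CPM per kb (27.7 to 32.1), and *Slc35g3*, of the nucleotide sugar transporter family, at 25.1 CPM per kb (19.7 to 29). The remaining genes of the 12 were the zinc importer *Slc39a6* (24.2 CPM per kb, range 19.4 to 29.5), the vesicular zinc transporter *Slc30a3* (21.01 CPM per kb, range 15.2 to 27.3), *Slc25a31* (19.8 CPM per kb, range 14.8 to 27.2) and the mitochondrial ornithine carrier *Slc25a2* (19.5 CPM per kb, range 10.9 to 27.95). When the longest transcript replaced the merged exons, 10 of these 12 were still among the 12 highest, and all 12 were when fl/Y libraries alone were used.

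**Figure D1:**
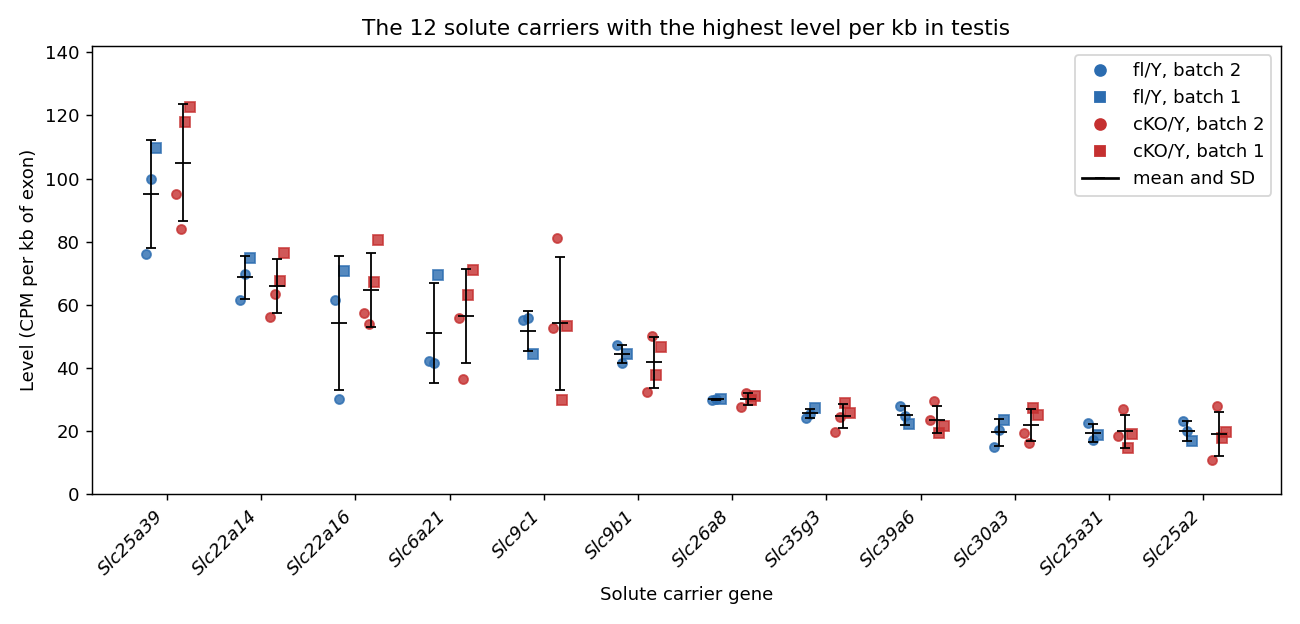
Level in CPM per kb of merged exon (vertical axis, linear) of the 12 solute carriers with the highest mean, 1 point per library, in blue for fl/Y and red for cKO/Y, with circles for batch 2, squares for batch 1 and black bars marking mean and SD. *Slc25a39* lies at 76.1 to 122.8, which overlaps the ranges of *Slc22a14*, *Slc22a16* and *Slc9c1*.

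By kind of solute, the mitochondrial carriers held the largest share of the summed CPM per kb, 25.1% with 46 genes. The amino acid carriers held 14.1% with 41 genes, the organic cation and anion carriers 13.9% with 13, the metal carriers 13.7% with 28 and the sodium-proton exchangers 9.01% with 10. Few genes made up the share of the organic cation and anion carriers, since *Slc22a14* and *Slc22a16* lead it, while the metal carriers had the highest median of these classes, 4.22 CPM per kb. Medians were 3.75 CPM per kb for the mitochondrial carriers and 1.43 for the amino acid carriers. Nucleotide sugar carriers and relatives (22 genes) held 6.25%, with *Slc35g3* as the highest, and bicarbonate, chloride and sulfate carriers (17 genes) 4.38%, with *Slc26a8*.

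The smaller classes had leading genes of lower level. *Slc34a2*, a sodium-phosphate cotransporter, was at 17.9 CPM per kb (15.2 to 21.5) and led the phosphate and vesicular carriers. *Slc29a1*, the equilibrative nucleoside transporter ENT1, was at 12.4 CPM per kb (10.8 to 14.9). *Slc13a5*, the sodium-citrate cotransporter, was at 8.49 CPM per kb (6.87 to 9.82) and led the sodium-coupled carriers of organic solutes, and *Slc52a3*, a riboflavin transporter, was at 8.296 CPM per kb (4.57 to 11.7) and led the vitamin carriers. The sodium-calcium exchanger *Slc8a2* (5.83 CPM per kb, range 3.11 to 7.71), the choline transporter-like gene *Slc44a2* (4.38 CPM per kb, range 3.73 to 4.79) and the peptide-histidine transporter *Slc15a4* (4.29 CPM per kb, range 3.31 to 4.905) led their classes, with ranges that overlap.

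The ADP/ATP carriers, which export ATP from mitochondria, were represented by 3 genes. *Slc25a31*, on chromosome 3, had 48.1, 36.5 and 40.05 CPM in fl/Y and 39.4, 57.8, 31.5 and 40.9 CPM in cKO/Y. *Slc25a5*, on the X chromosome, had 22.9, 14.1 and 19.9 CPM in fl/Y and 25.1, 19.9, 28.03 and 20.5 CPM in cKO/Y, and *Slc25a4* had 26.8, 16.4 and 19.6 CPM in fl/Y and 19.5, 18.7, 22.99 and 19.5 CPM in cKO/Y. Per kb of exon the means were 19.8, 13.1 and 8.71 CPM, with the germ cell gene highest by mean. The ranges of *Slc25a31* and *Slc25a5* per kb overlap, and in cKO/Y replicate 3 *Slc25a5* was the higher. The order within this pair was therefore not resolved. Of the 35-base words in *Slc25a5* transcripts, 46.5% also occur in transcripts of other genes, mostly its pseudogenes, so its level is uncertain (the reads were 35 bases long).

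The 10 solute carriers on the X chromosome had a median of 1.37 CPM per kb, and the 237 on autosomes 1.96. *Slc25a5* was the highest of the 10, and *Slc38a5*, an amino acid carrier of system N, followed at 4.4 CPM per kb (2.91 to 6.18). *Slc6a14*, a carrier of neutral and cationic amino acids, was at 2.07 CPM per kb (1.31 to 3.19). *Slc6a8*, the creatine transporter, had 1.67, 4.04 and 4.77 CPM in fl/Y and 4.34, 0.797, 4.09 and 3.11 CPM in cKO/Y. Over all genes above 1 CPM in at least 3 libraries the median was 2.26 CPM per kb on the X chromosome (688 genes) and 3.01 on autosomes (18640 genes). The medians of the solute carriers were taken without this filter, so these values are not set on the same footing. Of the 9 solute carriers tested on the X chromosome, 0 were at an unadjusted p under 0.05 between genotypes in limma, against 3.63% of all genes tested there. Their log2 fold changes ranged from -0.34 to 0.37.

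Genes of one family often lie side by side. Within 100000 bases of each other lay 23 pairs of the 247 genes, 17 of them of the same family. Pairs with *Slc36a1os* and *Slc7a6os*, which carry the name without being transporters, are included in these counts. Levels within a pair were often far apart. *Slc47a2* and *Slc47a1*, extruders of organic cations, are 540 bases apart on chromosome 11 and differed 38.4-fold in CPM per kb, with *Slc47a2* the higher. *Slc22a21*, a carnitine transporter, was 16.5-fold above *Slc22a4*, which lies 2790 bases away, and *Slc36a3* was 8.86-fold above *Slc36a1*, a proton-coupled amino acid transporter. On chromosome 7, *Slc6a21* was 6.49-fold above *Slc6a16*, 4145 bases away, and on chromosome 17 *Slc25a41* was 7.21-fold above *Slc25a23*, a carrier of ATP-magnesium, at 2056 bases. A pair of similar level was *Slc25a29* and *Slc25a47*, 162 bases apart, at a ratio of 1.05. *Slc22a21* and *Slc22a5* share 35-base words (28.4% and 34.6% of their own words also occur in other genes), so reads may be split between them. Of the 247 genes, 29 share more than 10% of their words with other genes. These ratios are descriptions without a test, and the pairs were chosen after their values were seen.

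No solute carrier differed between the genotypes past an adjusted p of 0.05 over all genes. The comparison covered the 244 solute carriers that exceeded 1 CPM in 3 or more libraries (*Slc6a11*, *Slc4a11* and *Slc25a43*, at means of 0.838, 0.795 and 1.02 CPM, did not reach this), tested by limma on log2(CPM + 0.5) with the batch as covariate among 19400 genes. Of all genes, 0.00515% were lower at this threshold, which is *Rlim*, and 0.0% were higher. On the recovered reads, edgeR and DESeq2 also called 0 of the 244. At an unadjusted p under 0.05, cKO/Y was lower for 5 of the 244 (2.05%) and higher for 6 (2.46%), against 1.37% and 1.22% of all genes. Of these 11, *Slc3a1* exceeded 1 CPM in fl/Y libraries alone and *Slc17a8* in cKO/Y libraries alone, so each passed the filter on low values through the group in which it was the higher. Without the 3 solute carriers of that kind (*Slc7a9* is the other) 4 lower (1.66%) and 5 higher (2.07%) were left of 241, against 1.24% and 1.06% of all genes treated the same way. These shares rest on few genes, and edgeR gave 2 lower and 5 higher (background 1.14% and 1.07%), DESeq2 1 and 2 (background 0.474% and 0.464%). The 11 genes came from 9 of the 17 classes, with 3 from the metal carriers and 1 from each of the other 8.

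The median log2 fold change of the 244 was 0.01, with 131 above and 113 below 0, and that of all genes was -0.01. In 194 of the 244 (79.5%) the 95% interval of the log2 fold change lay between -1 and 1, which held for 77.0% of all genes. For these genes a difference of 2-fold or more on the log2(CPM + 0.5) scale was outside the interval. Low genes show smaller changes on this scale, so for them a 2-fold difference in CPM can lie within it. The direction was the same in both batches for 115 of the 244 (47.1%), and for 48.4% of all genes. In batch 1 the direction rests on fl/Y replicate 3 as the only control. Counts at an unadjusted p under 0.05 depended on single libraries. The number lower was 8 without cKO/Y replicate 2 (3.12% of all genes), 1 without cKO/Y replicate 4 (1.24%), 1 without fl/Y replicate 1 (0.938%) and 0 without fl/Y replicate 2 (0.938%). The number higher was 12 without cKO/Y replicate 2 (3.16% of all genes), 2 without cKO/Y replicate 1 (1.79%), 2 without cKO/Y replicate 4 (0.995%), 3 without cKO/Y replicate 3 (0.897%) and 3 without fl/Y replicate 2 (1.43%).

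**Figure D2:**
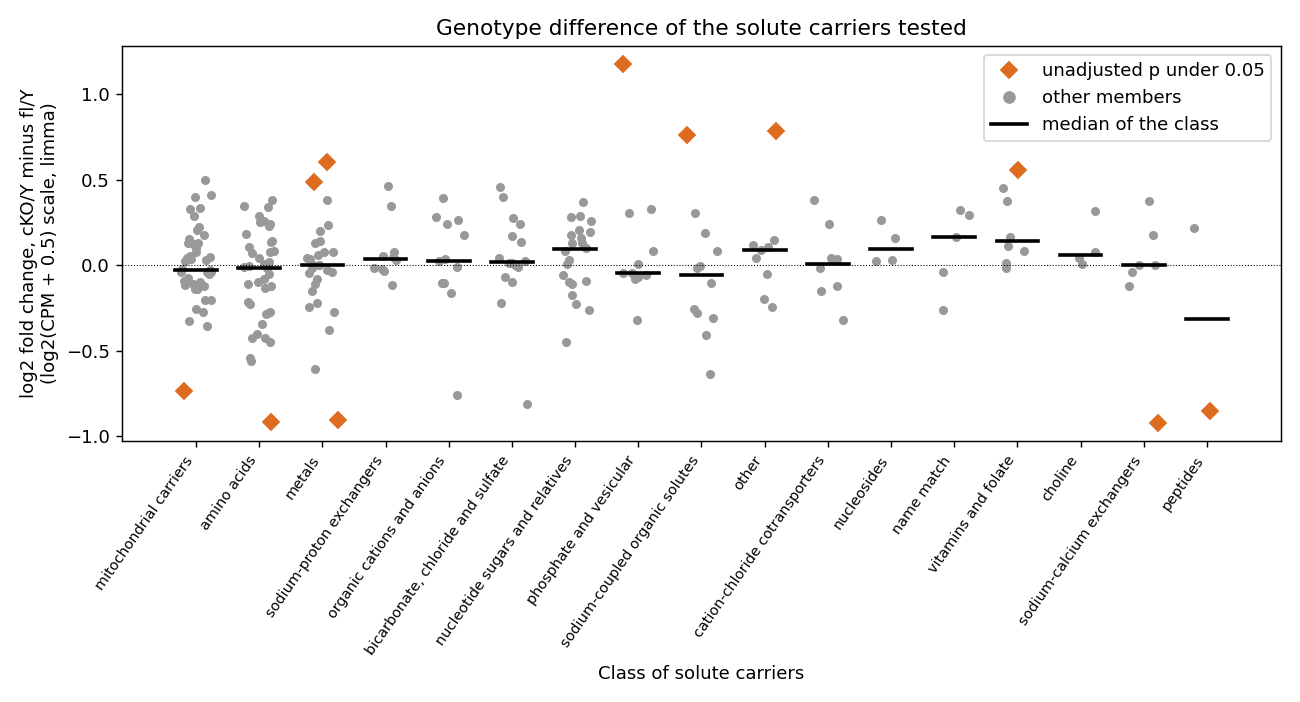
Log2 fold change of the 244 tested solute carriers, cKO/Y minus fl/Y on the log2(CPM + 0.5) scale (vertical axis), by class, with orange diamonds for the 11 genes at an unadjusted p under 0.05, grey points for the others and black bars for the median of each class. Medians lie between -0.32 (peptide carriers, 2 genes) and 0.16 (name matches, 5 genes), and points lie on both sides of 0 in 15 of the 17 classes.

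The summed level of each class overlapped between the genotypes. The mitochondrial carriers summed to 970.0 ± 15.5 CPM (SD, n = 3) without and 1001 ± 49.7 CPM (SD, n = 4) with the deletion, and the metal carriers to 832 ± 58.0 and 835 ± 83.5 CPM. Sums of the amino acid carriers were 876 ± 87.2 and 922 ± 85.8 CPM, and those of the sodium-proton exchangers 489.5 ± 9.45 and 498 ± 91.5 CPM. The exchangers ranged more widely in cKO/Y, from 400.9 CPM in replicate 3 to 606 CPM in replicate 2, and *Slc9c1* was the lowest and the highest in the same libraries. In each of the 17 classes the range of the sums in cKO/Y overlapped that in fl/Y.

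**Figure D3:**
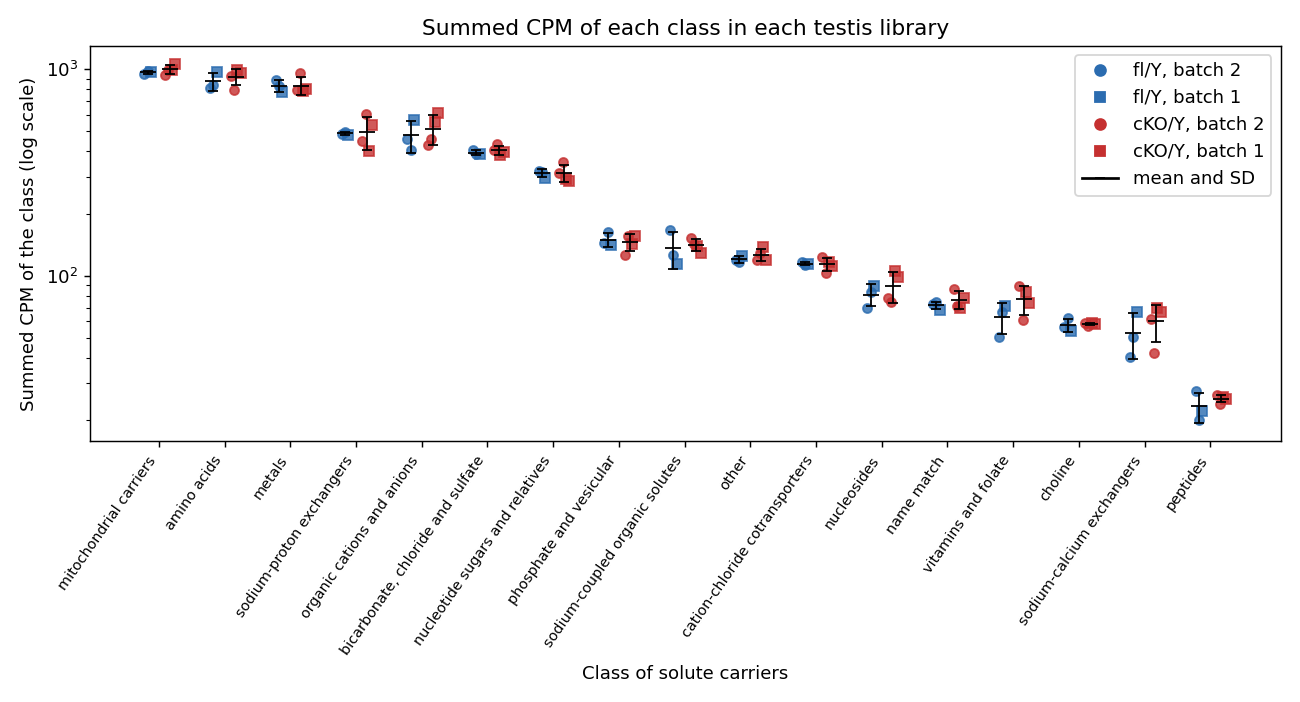
Summed CPM of the members of each class (vertical axis, log scale) in each library, in blue for fl/Y and red for cKO/Y, with circles for batch 2, squares for batch 1 and black bars marking mean and SD. Within each class the 4 cKO/Y libraries overlap the 3 fl/Y libraries. Sums of different classes are not per length and are not to be ranked.

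The unadjusted p of the 11 genes in limma ran from 0.013 (*Slc39a4*) to 0.0490 (*Slc15a1*), and each adjusted p was above 0.999, so the values that follow are given without a call. The 6 genes at the higher end included 2 of the 28 metal carriers, and 1 other metal carrier was at the lower end. *Slc39a14* (ENSMUSG00000022094, chr14:70303469-70351425 of GRCm38), an importer of zinc, manganese and iron, had 7.44, 7.47 and 7.43 CPM in fl/Y and 12.1, 10.4, 9.76 and 9.94 CPM in cKO/Y. The fl/Y libraries were nearly equal, and the 4 cKO/Y libraries were above them, with a log2 fold change of 0.49 (standard error 0.21, 95% interval 0.04 to 0.93). *Slc5a9*, a sodium-coupled transporter of mannose and fructose, had 2.79, 1.62 and 1.59 CPM in fl/Y and 4.03, 4.19, 2.83 and 2.91 CPM in cKO/Y. It also did not overlap between the genotypes, with a log2 fold change of 0.76 (standard error 0.30, 95% interval 0.12 to 1.40). *Slc14a2*, a urea transporter, had 2.602, 1.62 and 3.71 CPM in fl/Y and 6.51, 3.59, 5.98 and 4.01 CPM in cKO/Y, where only replicate 2 of cKO/Y lay within the fl/Y range, and a log2 fold change of 0.78 (standard error 0.32, 95% interval 0.11 to 1.46). Without cKO/Y replicate 1 this value was 0.52. The riboflavin transporter *Slc52a3* had 12.6, 21 and 18.3 CPM in fl/Y and 31.9, 15.7, 32.4 and 28.6 CPM in cKO/Y. Its replicate 2 of cKO/Y lay within the fl/Y range and the other 3 lay above it, with a log2 fold change of 0.56 (standard error 0.24, 95% interval 0.04 to 1.07). Without cKO/Y replicate 1 this value was 0.34. *Slc30a6*, a zinc transporter of the Golgi pathway, had 8.55, 6.06 and 6.1 CPM in fl/Y and 10.9, 16.1, 5.35 and 10.04 CPM in cKO/Y. Replicate 3 of cKO/Y was below all of fl/Y and the other 3 were above, with a log2 fold change of 0.60 (standard error 0.27, 95% interval 0.02 to 1.18). The vesicular glutamate transporter *Slc17a8* was at the limit of detection, with 5, 0 and 0 reads in fl/Y and 4, 2, 6 and 14 reads in cKO/Y, and a log2 fold change of 1.18 (standard error 0.51, 95% interval 0.10 to 2.25). It passed the filter through cKO/Y libraries alone, so its direction supports nothing, and without fl/Y replicate 3 its log2 fold change was 0.57.

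Among the 5 genes at the lower end, *Slc39a4*, a zinc importer known from the intestine, had the smallest p. It had 2.79, 4.44 and 4.24 CPM in fl/Y and 1.24, 1.196, 3.46 and 2.71 CPM in cKO/Y. In cKO/Y, 3 libraries were below all of fl/Y and replicate 3 lay within its range, with a log2 fold change of -0.90 (standard error 0.32, 95% interval -1.59 to -0.22). *Slc24a1*, a sodium-calcium-potassium exchanger known from rods, had 2.79, 2.42 and 3.71 CPM in fl/Y and 0.6203, 0.997, 4.72 and 1.41 CPM in cKO/Y. In cKO/Y, 3 libraries were below fl/Y and replicate 3 was the highest of all 7, with a log2 fold change of -0.92 (standard error 0.39, 95% interval -1.75 to -0.09). *Slc25a27*, a mitochondrial carrier of the uncoupling protein group, had 6.13, 4.44 and 5.83 CPM in fl/Y and 2.17, 1.59, 7.24 and 5.22 CPM in cKO/Y. It was lower within batch 2 (log2 fold change -1.28) and not within batch 1 (0.07), where fl/Y replicate 3 was the only control. Over both batches the log2 fold change was -0.74 (standard error 0.32, 95% interval -1.42 to -0.05). Without fl/Y replicate 3 it was -1.28. *Slc15a1*, the peptide transporter PEPT1, had 2.23, 2.42 and 1.86 CPM in fl/Y and 0.3102, 0.997, 2.204 and 1.305 CPM in cKO/Y, where only replicate 3 of cKO/Y lay within the fl/Y range, and a log2 fold change of -0.85 (standard error 0.40, 95% interval -1.70 to -0.004). Without cKO/Y replicate 1 this value was -0.50 and without fl/Y replicate 3 it was -1.36. *Slc3a1*, the heavy subunit of the cystine transporter, had 1.301, 1.01 and 1.33 CPM in fl/Y and 0.3102, 0.199, 0.945 and 0.502 CPM in cKO/Y, which are 7, 5 and 5 reads in fl/Y and 1, 1, 3 and 5 reads in cKO/Y, and a log2 fold change of -0.92 (standard error 0.40, 95% interval -1.77 to -0.07). It passed the filter through fl/Y libraries alone, so its direction supports nothing. All cKO/Y libraries were below all fl/Y libraries, at the depth of a few reads, and 25.3% of the words of *Slc3a1* also occur in *Prepl*, which overlaps it on the opposite strand, and the sources used here do not state whether counting used strand.

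**Figure D4:**
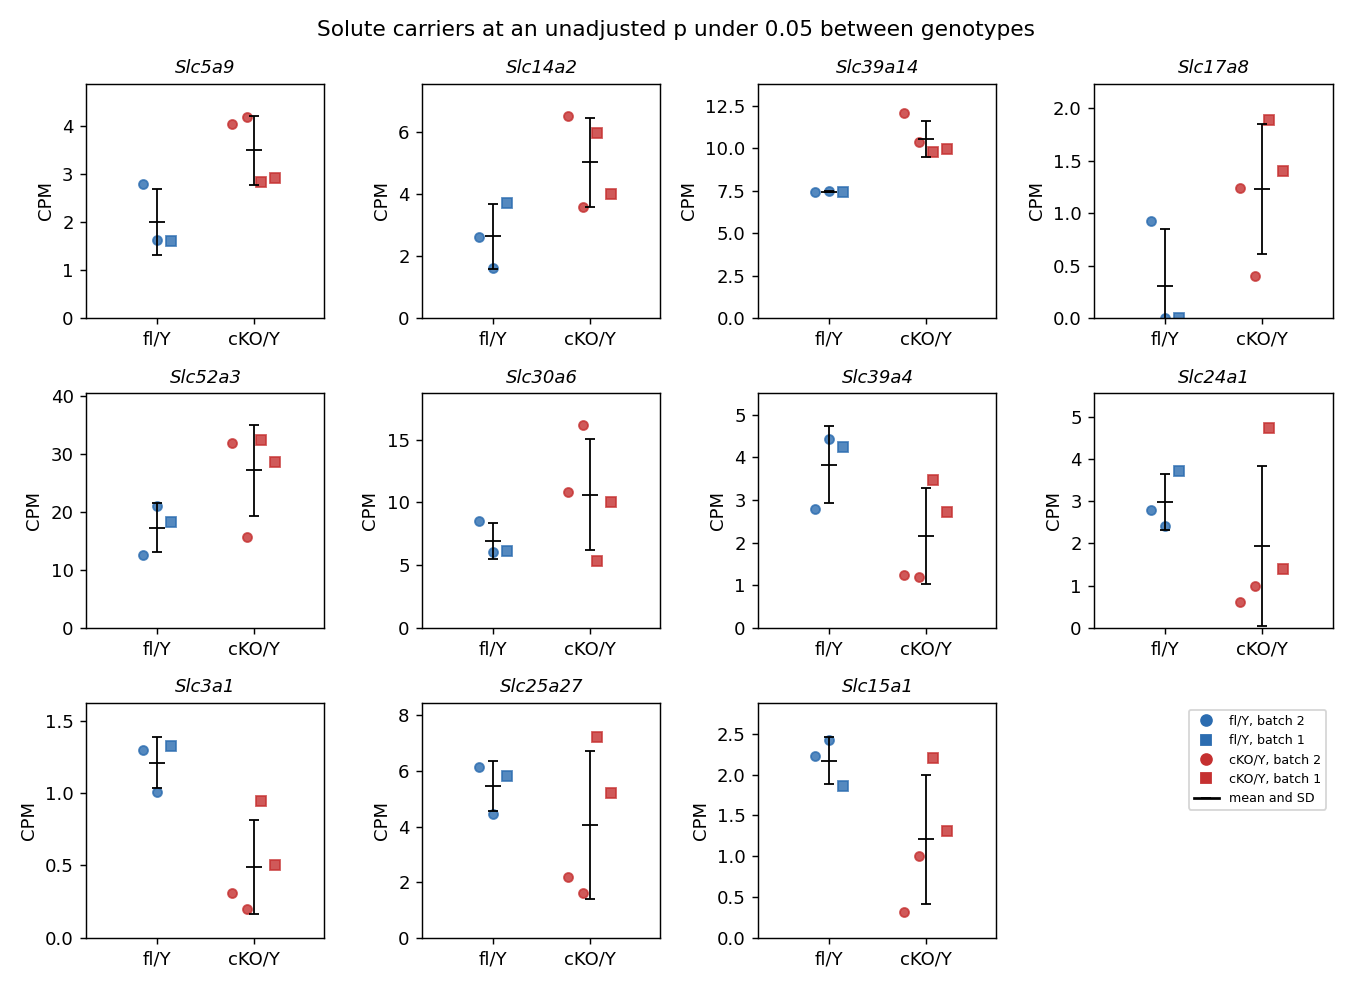
CPM (vertical axes, each from 0) of the 11 solute carriers at an unadjusted p under 0.05, with the 6 higher in cKO/Y first, 1 point per library in blue for fl/Y and red for cKO/Y, circles for batch 2, squares for batch 1 and black bars marking mean and SD. The groups do not overlap for *Slc5a9*, *Slc39a14* and *Slc3a1*, and none of the 11 passed the adjusted p.

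Groups did not overlap for 10 of the 244 genes. In 4 (1.64%) every cKO/Y library was lower, against 1.59% of all genes, and in 6 (2.46%) every one was higher, against 1.34% of all genes. *Slc47a1* had 1.67, 1.82 and 1.59 CPM in fl/Y and 0.931, 0.199, 1.57 and 1.204 CPM in cKO/Y, with a log2 fold change of -0.76 (standard error 0.40, 95% interval -1.62 to 0.09), and *Slc4a9*, a bicarbonate exchanger, had 1.67, 1.82 and 1.86 CPM in fl/Y and 0.931, 0.199, 1.57 and 1.305 CPM in cKO/Y, with a log2 fold change of -0.81 (standard error 0.39, 95% interval -1.65 to 0.02). The other two were *Slc3a1* and *Slc7a9*, the light chain that pairs with *Slc3a1* in the cystine transporter. *Slc7a9*, chosen after its values were seen as one of this count, had 1.301, 1.01 and 1.06 CPM in fl/Y and 0.6203, 0.598, 0.315 and 0.903 CPM in cKO/Y (7, 5 and 4 reads in fl/Y and 2, 3, 1 and 9 reads in cKO/Y), with a log2 fold change of -0.56 (standard error 0.40, 95% interval -1.40 to 0.28). Both subunits were at 1.33 CPM or less in every library, where 1 read is worth 0.1 to 0.315 CPM, and both passed the filter through fl/Y libraries alone, so that they had to be lower in cKO/Y. Without members of that kind 2 lower of 241 (0.83%) and 6 higher (2.49%) were left, against 1.4% and 1.17% of all genes treated the same way. The 6 were *Slc39a14*, *Slc5a9*, *Slc13a5*, *Slc23a2*, *Slc9a2* and *Slc9a9*, of which the last 3 were likewise chosen after their values were seen. *Slc13a5* was the highest of them in CPM per kb and had 41.6, 33.9 and 35.3 CPM in fl/Y and 45.3, 43.7, 48.5 and 45.3 CPM in cKO/Y, with a log2 fold change of 0.31 (standard error 0.15, 95% interval -0.02 to 0.63). *Slc23a2*, an ascorbate transporter, had 5.95, 5.05 and 5.83 CPM in fl/Y and 9.62, 6.78, 6.93 and 6.22 CPM in cKO/Y, with a log2 fold change of 0.38 (standard error 0.24, 95% interval -0.14 to 0.89). *Slc9a2*, a plasma membrane sodium-proton exchanger, had 6.69, 7.27 and 8.22 CPM in fl/Y and 9.93, 9.37, 9.76 and 9.23 CPM in cKO/Y, with a log2 fold change of 0.34 (standard error 0.21, 95% interval -0.11 to 0.79), and *Slc9a9*, an endosomal one, ranged from 1.67 to 2.02 CPM in fl/Y and from 2.19 to 4.41 CPM in cKO/Y.

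A list of 26 carriers known from work on sperm, germ cells and Sertoli cells was drawn up for this comparison, of which 23 were among the genes listed and tested (*Slc5a7*, *Slc9b2* and *Slc24a4* were not analysed here). None of the 23 was at an unadjusted p under 0.05 (the smallest was 0.180 in limma), against 2.58% of all genes. Their log2 fold changes ranged from -0.34 (*Slc6a8*) to 0.29 (*Slc25a5*), with 10 above and 13 below 0 and a median of -0.02. The 95% interval lay between -1 and 1 for 22 of the 23, against 77.0% of all genes. Several of the 23 are among the 12 highest per kb, and counting error is larger at low levels. The shares therefore do not compare genes of like level. *Slc26a8* lay within 142.6 to 143.2 CPM in fl/Y and 131.8 to 152.5 CPM in cKO/Y, and the interval of its log2 fold change ran from -0.28 to 0.29. Its coefficient of variation over the 7 libraries was 4.47%, where the median of the solute carriers tested was 25.7%. Their median level was 8.98 CPM, where counting error is larger, so the values are not alike. The anion exchangers *Slc26a6* and *Slc26a3* were far lower in level, at 0.581 CPM per kb (0.368 to 0.798) and 0.169 CPM per kb (0.0494 to 0.2504). *Slc9c1* had 224, 226 and 180.4 CPM in fl/Y and 214, 329, 121 and 217 CPM in cKO/Y, and replicates 2 and 3 of cKO/Y held the highest and the lowest value, with a log2 fold change of 0.08 (standard error 0.20, 95% interval -0.35 to 0.51). *Slc22a14* had 149, 169.8 and 182 CPM in fl/Y and 137, 155, 164 and 186 CPM in cKO/Y, with a log2 fold change of -0.10 (standard error 0.14, 95% interval -0.39 to 0.19). The sodium-potassium-chloride cotransporter *Slc12a2*, which mice need for spermatogenesis, had 39.97, 25.8 and 28.9 CPM in fl/Y and 29.2, 31.1, 21.1 and 28.5 CPM in cKO/Y, with a log2 fold change of -0.15 (standard error 0.19, 95% interval -0.55 to 0.25). The thiamine transporter *Slc19a2* had 19.1, 25.2 and 25.7 CPM in fl/Y and 23.6, 26.1, 21.7 and 22.2 CPM in cKO/Y, with a log2 fold change of 0.01 (standard error 0.18, 95% interval -0.37 to 0.39), and the cystine-glutamate exchanger *Slc7a11* had 14.9, 9.49 and 11.9 CPM in fl/Y and 7.44, 16.7, 12.6 and 9.13 CPM in cKO/Y, with a log2 fold change of -0.11 (standard error 0.27, 95% interval -0.69 to 0.47).

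Between the batches, 9 of the 244 solute carriers passed an adjusted p of 0.05 in the same fit, 4 (1.64%) higher and 5 (2.05%) lower in batch 1, against 3.6% and 3.46% of all genes. Higher in batch 1 were *Slc6a21*, *Slc22a21*, *Slc47a2* and *Slc6a7*, a proline transporter. *Slc6a21* had 140.9 to 216 CPM in the 4 libraries of batch 2 and 245 to 275 CPM in the 3 of batch 1. *Slc22a21* had 45.3 to 54.6 CPM in batch 2 and 69.2 to 74.6 CPM in batch 1. Lower in batch 1 were *Slc25a36*, a mitochondrial pyrimidine nucleotide carrier, the anion exchanger *Slc26a7*, the zinc transporter *Slc39a9*, the inositol transporter *Slc5a3* and the bile acid transporter *Slc10a2*. *Slc25a36* had 50.1 to 64.8 CPM in batch 2 and 26.1 to 36.3 CPM in batch 1, with a log2 difference of -0.84 (limma, adjusted p = 0.0111). None of the 9 overlapped between the batches. The summed spermatid markers were 5560 to 6936 CPM in batch 2 and 9060 to 10783 CPM in batch 1, and their part in these differences was not tested. These calls depended on single libraries, and so did those over all genes. Without cKO/Y replicate 1 they became 14 higher and 13 lower, the 9 among them (8.14% and 7.48% of all genes), and without fl/Y replicate 2 they became 8 and 5 (3.9% and 4.07%). Without cKO/Y replicate 2 they were 3 and 3 (1.98% and 1.44%), without fl/Y replicate 1 they were 0 and 2 (1.32% and 0.954%) and without cKO/Y replicate 4 they were 0 and 1 (1.2% and 1.28%). Without cKO/Y replicate 3 limma called 0 in both directions (0.521% and 0.376% of all genes), and likewise without fl/Y replicate 3 (0.191% and 0.186%). At an unadjusted p under 0.05 there were 19 higher and 8 lower without the former and 23 and 13 without the latter. The shares of all genes for these unadjusted counts are not given here. With all libraries there were 37 and 20 (15.2% and 8.2% of the 244, against 12.9% and 11.9% of all genes).

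**Figure D5:**
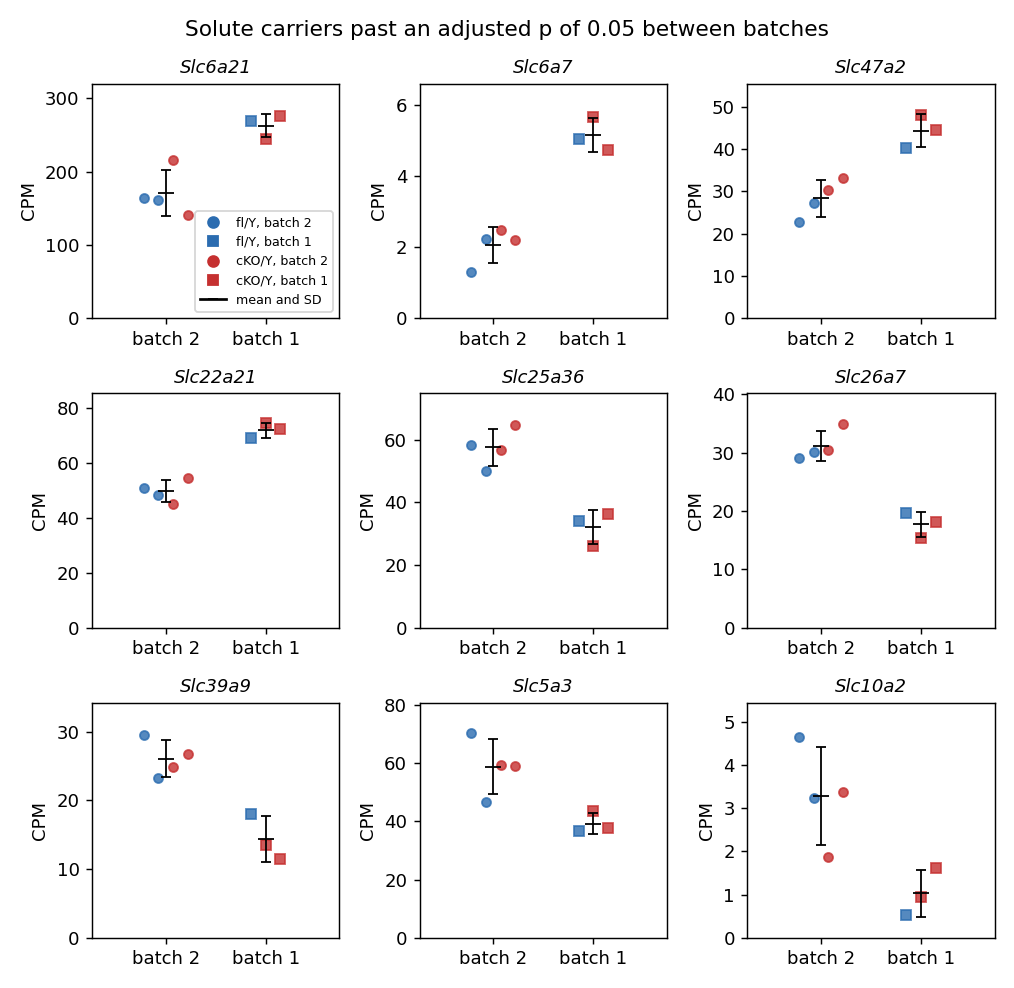
CPM (vertical axes, each from 0) of the 9 solute carriers past an adjusted p of 0.05 between the batches, 1 point per library in blue for fl/Y and red for cKO/Y, with bars for mean and SD of each batch. The first 4 panels are the genes higher in batch 1 and the other 5 those lower in batch 1, and the batches do not overlap in any panel.

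A pair of carriers set fl/Y replicate 1 and cKO/Y replicate 2 apart from the other libraries in both directions. The pair was picked after its values were seen, and genes with this split were not counted. *Slc6a8* was at 1.67 and 0.797 CPM in these libraries and at 3.11 to 4.77 CPM in the other 5. *Slc33a1*, the acetyl-CoA transporter of the endoplasmic reticulum, was the reverse, at 38.7 and 46.4 CPM in these libraries and 16.7 to 29.5 CPM in the others. The same libraries had the lowest sums of Sertoli cell markers. They also had the highest sums of spermatocyte markers (3587 and 3788 CPM, against 2676 to 3312 CPM in the others) and the lowest of spermatid markers (6010 and 5560 CPM, against 6747 to 10783 CPM), and the part of these in the values was not tested.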

How the data were processed

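RNA of total testis was sequenced in 7 libraries (fl/Y, 3, and cKO/Y Sox2-Cre, 4), and the labels do not say that each library came from a separate animal, so p-values measure the spread between these samples. Per the labels, the submitters' processing notes name HISAT2 2.1.0, featureCounts and edgeR on GRCm38, whereas the methods of the study name another aligner and counter. The signal values are CPM deposited by the authors, scaled by library with what were, as computed from the recovered reads, TMM factors (edgeR). All values were whole multiples of 1 read to within 0.001 read, so reads could be recovered. Columns of per-sample values left unused numbered 0.

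Genes above 1 CPM in at least 3 of 7 libraries (19400) were fitted on log2(CPM + 0.5), on which low genes show smaller changes, by limma 3.58.1 in R 4.3.3 with batch as covariate and a trend in the prior variance. P-values are two-sided and adjusted by Benjamini-Hochberg at 0.05. The scripts were tested on simulated data. Alternatives were other pseudocounts, filters, scalings and variance models, each batch or no batch term, a replicate block, each library left out, and edgeR 4.0.16 and DESeq2 1.42.0 on recovered reads. Leaving out libraries from the batch comparison was added after the data were seen. Lengths and shared 35-base words came from GENCODE M21 and promoters from RefSeq. No protein sequence was used here.

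The members, classes, lists and tests were chosen with earlier results of these data known. Named are *Rlim*, the 12 highest per kb, the 10 higher and 10 lower with the smallest p, any gene past the adjusted p, the highest of each class, those on the X chromosome, 5 in each direction between batches, and a list of 26 carriers known from testis. A name outside this rule is marked in the text as chosen after its values were seen. Some named genes are not reported here.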

Additional observations from a re-analysis of the deposited data

Results flagged for a closer look

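The group of 4 cKO/Y libraries was examined for a single distant value in *Rlim* and the 67 named solute carriers, where chance alone gives a distant value in about 1 of 20 groups, and 1 was found. *Slc33a1* was at 46.4 CPM in cKO/Y replicate 2, whereas the other 3 cKO/Y libraries were at 16.7 to 20.2 CPM, so that the gap took 0.885 of the whole range. Among the fl/Y libraries, replicate 1 was at 38.7 CPM. In *Slc33a1*, 31.1% of the 35-base words also occur in transcripts of Gm26850.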

How the results depend on the processing

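No solute carrier passed an adjusted p of 0.05 between genotypes in limma or in any of the 19 alternatives, and the median log2 fold change of the group stayed within the spread of the library medians in each. The numbers at an unadjusted p under 0.05 (6 higher, 5 lower) changed more. They were 2 higher and 1 lower in DESeq2 (0.464% and 0.474% of all genes), 2 lower in edgeR (1.14%), 0 lower in batch 1 alone (2.32%), 3 higher in batch 2 alone (0.696%), 2 higher and 0 lower among genes with a mean above 5 CPM (0.625% and 0.717%), 0 lower without the batch term (0.84%) and 8 lower without the variance trend (1.96%). With each library left out in turn they ranged from 2 to 12 higher and 0 to 8 lower (0.897% to 3.16% and 0.938% to 3.12% of all genes). The numbers between batches (4 higher and 5 lower in batch 1) ranged from 0 to 14 and 0 to 13 (0.191% to 8.14% and 0.186% to 7.48% of all genes). *Slc25a27* turned to 0.071 in batch 1 alone, where fl/Y replicate 3 was the only control. The *Rlim* log2 fold change was past the threshold in the main comparison and missed it at -1.29 in batch 2 alone, at -1.47 without the batch term and at -1.38 without the variance trend, and it ranged from -1.52 to -1.28 with a library left out. The causes were not tested. Of 1254 values of the named genes under the alternatives, 88 lost an unadjusted p under 0.05, 19 moved by more than the residual SD, 1 reversed and 1146 did none of these.

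Same-numbered libraries had correlations of 0.101, 0.066 and 0.392 of their deviations from the genotype means. By these, fl/Y replicates 1 and 2 both matched cKO/Y replicate 2 best, and fl/Y replicate 3 matched cKO/Y replicate 3. Batch was not removed from the deviations, and same-numbered libraries share a batch. The correlations therefore cannot decide whether the numbers are pairs, and the numbers were not treated as pairs. A replicate block, in which cKO/Y replicate 4 has no partner, gave 2 higher and 1 lower (0.825% and 1.01% of all genes), and an *Rlim* log2 fold change of -1.35 (limma, adjusted p = 0.307). Members at about 1 CPM rest on a few reads in a library, which limits their precision.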
